A study of Mus musculus with 2 samples.

Results

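Microexons are exons so short that they add only a few amino acids to a protein. The exons described here are the internal exons of 3 to 27 nucleotides (nt), with an exon on each side in the same transcript, of the Ensembl 65 models on the mouse assembly mm9, each position taken once. There were 2892 such exons, in 2000 genes, among 192346 internal exons. They were followed in polyadenylated RNA of the urinary bladder of C57BL/6J mice at 8 weeks of age, littermates of mixed sex, with no treatment and no modified allele named in the labels. The series holds 1 group, adult bladder, with 2 libraries numbered as biological replicates, so no comparison between conditions can be made. Both libraries name the same donor entry and nothing says that they came from separate animals, so the spread between them may be technical.

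Microexons are best known from neurons, where the splicing factor Srrm4 promotes the inclusion of many of them and Ptbp1, abundant outside the nervous system, holds them back. Most of the regulated ones keep the reading frame and insert a short stretch into the surface of a protein of the synapse, the cytoskeleton or membrane traffic. Muscle has its own set, in sarcomere genes and in the Mef2 transcription factors, controlled among others by Rbfox and Mbnl proteins. The bladder wall holds a stratified epithelium, connective tissue, smooth muscle and few nerve cell bodies.

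Inclusion was measured from reads that cross splice junctions, as the mean of the reads on the 2 annotated flanking introns in percent of that mean plus the reads of the junction that skips the exon. The junction file gives reads for each of 2 libraries, called R1 and R2 there, with 53589498 and 60510166 reads. No label ties R1 and R2 to the numbered replicates, and they are used below as the 2 libraries without order. Of the 2892 microexons, 1305 in 1058 genes had at least 20 reads behind the value. The other 1587 were not measured, 1175 of them with no read and 412 with fewer than 20 reads. At the limit of 20, 57 exons had 15 to under 20 reads and 46 had 20 to 25. Each value has a 95% Wilson interval, which covers counting error only. Reads are PCR products without molecular identifiers and are not independent molecules.

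The exons that carry the results are shown first, with the microexon in capitals and bases of the neighbouring exons in lower case, read 5′ to 3′ from the GENCODE M21 transcript that holds the exon. Positions are given on mm9, where the junctions were counted, and on mm10, the assembly of the sequence. The first set had intermediate inclusion, between 10% and 90%.
Flna, 24 nt, mm9 chrX:71478306-71478329, mm10 chrX:74232967-74232990, minus strand: cagTGTCAATCGGAGGTCACGGGCTAGgtg
Picalm, 24 nt, mm9 chr7:97342783-97342806, mm10 chr7:90194273-90194296, plus strand: atgAATGGCATGCATTTTCCACAATACgcg
Anxa6, 18 nt, mm9 chr11:54800553-54800570, mm10 chr11:54987051-54987068, minus strand: gcccagGTGGCTGCTGAGATCTTGgaaata
Pdlim7, 17 nt, mm9 chr13:55609225-55609241, mm10 chr13:55507864-55507880, minus strand: cagaagGTGCAGACCTCTGACAAacagtt
Macf1, 18 nt, mm9 chr4:123041300-123041317, mm10 chr4:123364057-123364074, minus strand: taccggTTCTTCCTCGGCAATCAGtttgga
Max, 27 nt, mm9 chr12:78062250-78062276, mm10 chr12:76961263-76961289, minus strand: cGAAGAGCAACCGAGGTTTCAATCTGCGg
Mef2a, 24 nt, mm9 chr7:74389407-74389430, mm10 chr7:67244521-67244544, minus strand: cttTCGGAGGAAGAGGAATTGGAGTTGaat
Mef2d, 21 nt, mm9 chr3:87965703-87965723, mm10 chr3:88161781-88161801, plus strand: tttgACTGAGGACCATTTAGATCTGaaca
Ctnnd1, 18 nt, mm9 chr2:84452689-84452706, mm10 chr2:84612532-84612549, minus strand: gcaaagATGAGTGGTTCTCCAGAGggaaaa
Dnm2, 12 nt, mm9 chr9:21295102-21295113, mm10 chr9:21490658-21490669, plus strand: cccaatcagGGGGAGATCTTGgtgatccgc

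The second set had inclusion under 10% by junction reads, and most of these exons are known from neurons or muscle. The exon of 9 nt in Tnnt2 is shorter than the lengths at which flank reads were commonly found. At 12 nt reads at both flanks were uncommon as well.
Src, 18 nt, mm9 chr2:157284579-157284596, mm10 chr2:157458843-157458860, plus strand: taacacGAGGAAGGTGGATGTCAGagaggg
Agrn, 12 nt, mm9 chr4:155543655-155543666, mm10 chr4:156169546-156169557, minus strand: gaatctccgAAATCCCGCAAGgtcccgcac
Agrn, 24 nt, mm9 chr4:155542655-155542678, mm10 chr4:156168546-156168569, minus strand: gagCGAGCTGACCAATGAGATCCCAGCccc
Kdm1a, 12 nt, mm9 chr4:136119353-136119364, mm10 chr4:136563438-136563449, minus strand: ggacaagctGACACTGTCAAGgttccaaaa
L1cam, 12 nt, mm9 chrX:71100991-71101002, mm10 chrX:73855652-73855663, minus strand: cgagtacagGTCCCTGGAGAGtgacaatga
Tnnt2, 9 nt, mm9 chr1:137746956-137746964, mm10 chr1:135850379-135850387, plus strand: catccagaagCAAGCTCAGacagagcgga

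The third set was included in nearly every transcript and shows that a very short exon need not be alternative.
Krt15, 26 nt, mm9 chr11:99993912-99993937, mm10 chr11:100132598-100132623, minus strand: aaGATGGCTGGTATTGGTGTCAGAGAAGta
Selenow, 25 nt, mm9 chr7:16505798-16505822, mm10 chr7:15920449-15920473, minus strand: tgTGGAGCTTGAGGCTATAAGCCCAAGta
Uqcrh, 21 nt, mm9 chr4:115743342-115743362, mm10 chr4:116070737-116070757, minus strand: agagGAAGAAGAGGAAGAACTAGTGacag

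By the rule as written, 857 of the 1305 measured microexons were included (inclusion over 90%), 153 were intermediate and 295 were skipped, which is 65.7%, 11.7% and 22.6%. Of 134218 longer internal exons measured in the same way, 95.9% were included, 2.48% intermediate and 1.6% skipped, and of the 5505 among them of 28 to 50 nt 88.6%, 6.36% and 5.03%. In 485 microexons the reads at one flank were more than 3 times those at the other, with 1 read added to each, and 413 of these shared one end with another annotated exon. Where an exon shares an end with a longer exon, the junction at that end also counts reads of the longer exon. Rpl13a, a ribosomal protein gene, held 2 such exons, of 12 and 15 nt, each with 0 reads at the upstream flank and 30691 at the downstream flank, and Adh1 held an exon of 21 nt with 16437 and 0. By the mean of the flanks all 3 came out at 100% inclusion. The 820 microexons, in 678 genes, whose flanks lay within 3 times of each other are therefore the base of all that follows, except where another set is named. Exons with no read at either flank pass this limit. They were 175 of the 820, 109 of them of 12 to 27 nt, and all were skipped. The limit kept 430 of the 857 included and 266 of the 295 skipped exons. With at least 5 reads at both flanks, which leaves out most skipped exons by its rule, 29 of 583 were skipped. The skipped shares below, also those of the gene lists, hold exons with no flank read.

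Of these 820 microexons, 430 (52.4%) were included, 124 (15.1%) intermediate and 266 (32.4%) skipped. Among longer internal exons under the same limit on the flanks, the shares were 96.3%, 2.28% and 1.45% of 119667. Exons of 28 to 50 nt lay between them, with 88.3% included, 6.59% intermediate and 5.14% skipped of 4629. The median inclusion of the microexons was 96.7%. Of the 820, 142 still shared 1 end with another annotated exon, Ctnnd1, Pecam1, Uckl1, Sh3glb2, Cltc, Lgals8 and Ptk2b below among them, and reads at the shared end may belong to either exon. Without them 336 were included, 105 intermediate and 237 skipped of 678. Without exons under 12 nt, whose values are described below, 428 were included, 124 intermediate and 193 skipped of 745. The included share was lower at shorter lengths within the class: 65.3% of the 380 exons of 24 to 27 nt were included, against 55.0% of the 109 of 18 to 20 nt, 24.6% of the 65 of 15 to 17 nt and 18.9% of the 37 of 12 to 14 nt. Intermediate exons took a similar share at every length from 12 nt on, between 14.9% and 20%. Exons are not replicates, and these shares are descriptions with no test.

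**Figure D1:**
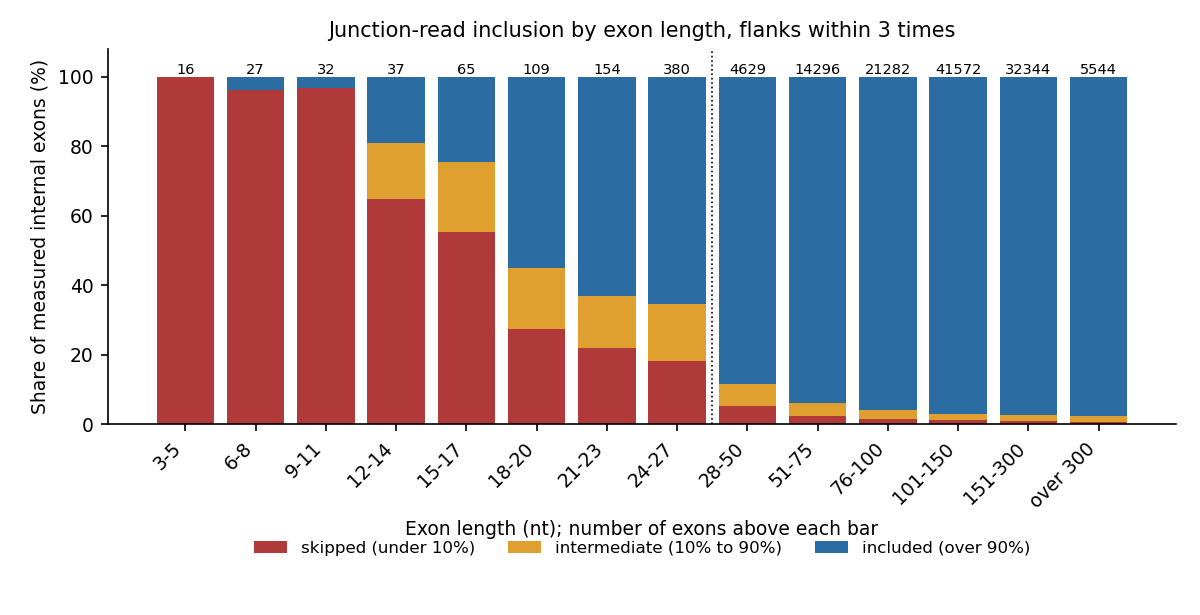
Share of measured internal exons (%, vertical axis) that were skipped (red), intermediate (orange) or included (blue) in each class of exon length in nt (horizontal axis), for exons with flanks within 3 times of each other; the number of exons stands above each bar and the dotted line separates microexons from longer exons. The skipped share is 18.2% at 24 to 27 nt, 64.9% at 12 to 14 nt and 5.14% at 28 to 50 nt.

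Below 12 nt the junction reads gave almost no sign of inclusion. Of the 165 measured exons of 3 to 11 nt, 2 had at least 5 reads at both flanks. They were named here after their values were seen. The exon of 6 nt in Phb2, which encodes a prohibitin of the mitochondrial inner membrane, had 11 upstream and 9 downstream reads in R1 and 11 and 23 in R2, against 0 and 1 skipping reads, which gave 96.4% (95% interval 82.3% to 99.4%). The exon of 11 nt in Sept5, a septin gene, had 11 and 9 flank reads in R1, 26 and 8 in R2 and no skipping read. Of 1140 exons of 12 to 27 nt, 581 had such reads at both flanks. Among exons of 12 to 14 nt these were 15 of 98, and among those of 24 to 27 nt 326 of 510. No label or file header names the aligner or its smallest anchor, and the part of read alignment in the low values of the shortest exons was not tested. For exons of 3 to 11 nt, a value of 0 is therefore given only as what the junction file lists. From 12 to 17 nt reads at both flanks were also less common, with 33 of 133 exons of 15 to 17 nt. The part of read alignment in low values at these lengths, and in the counts from 12 nt on, was not tested either.

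**Figure D2:**
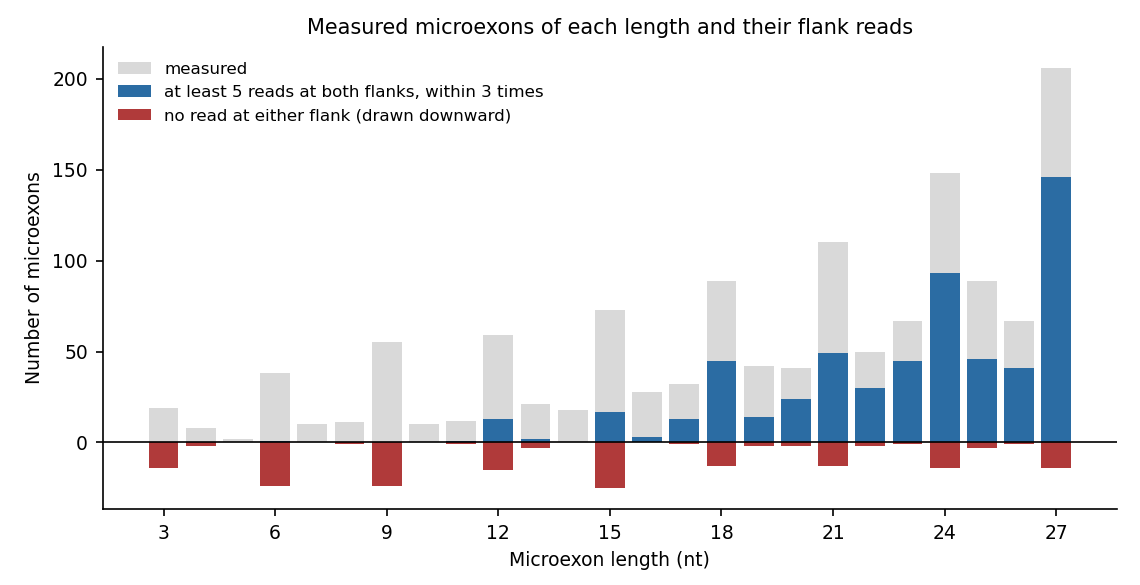
Number of measured microexons (vertical axis) at each length in nt (horizontal axis): all measured (grey), those with at least 5 reads at both flanks and flanks within 3 times (blue, drawn over the grey) and, downward, those with no read at either flank (red). Blue is all but absent under 12 nt, with 1 exon at 6 nt and 1 at 11 nt, and reaches 146 of 206 exons at 27 nt.

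Over the 820 exons the correlation of inclusion between them was 0.995 (Pearson) and 0.958 (Spearman), a description across exons that share libraries and genes. For the 124 intermediate exons the median difference between R1 and R2 was 5.50 percentage points, a median SD of 3.89 (n = 2), and for the 84 of these with at least 100 reads it was 3.67 points. Most of the 820 exons lay near 0% or 100%, and within the 124 the correlation was 0.923 (Pearson). Among the 124, R1 and R2 lay over 10 points apart in 32, and the widest gap was 34.1 points, in Cacna1d (27 nt), with 63.0% in R1 and 28.9% in R2. The intervals of R1 and R2 did not overlap in 5 exons. Cacnb3 (20 nt) stood at 64.6% in R1 and 74.0% in R2, Mef2a (24 nt) at 21% and 12.2%, and Flna (24 nt) at 30.6% and 32.1%. Dpm1 (26 nt) stood at 98.9% and 91.9%, and Ptprz1 (21 nt) at 60.4% and 81.1%; both are named here after their values were seen. R1 was the higher library in 2 of the 5. Smooth muscle markers also differed between the numbered replicates of the gene tables, where Myh11 stood at 2113 and 1170 TPM and Des at 1876 and 1372 TPM. Their part in these differences was not tested.

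The most deeply read intermediate exon was the one of 24 nt in Flna, the filamin that crosslinks actin and carries mechanical load in smooth muscle. It had 6331 upstream, 6965 downstream and 15090 skipping reads in R1 and 8634, 8433 and 18043 in R2. Inclusion over both was 31.4%, with a 95% interval of 31% to 31.8% for counting error only. R1 at 30.6% and R2 at 32.1% both lay outside this interval. The 2 flanks of the exon carried similar reads in both libraries. Further genes of the actin and membrane skeleton held intermediate microexons. Macf1, a giant linker of actin and microtubules, included its exon of 18 nt at 66.5% in R1 and 66.2% in R2. In Pdlim7, a PDZ and LIM protein of the actin cytoskeleton, the exon of 17 nt stood at 48.9% and 47.7%, and with the single best flank pair in place of all annotated flanks at 38.0% over both. Sptan1, nonerythroid alpha spectrin, included 15 nt at 28% and 23.7%. In Ctnnd1, the p120 catenin that holds cadherins at the cell surface, the exon of 18 nt stood at 20% and 21.6%. In each of these exons the libraries lay within 5 points of each other.

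Several of the exons with intermediate inclusion lay in genes that act in endocytosis or other membrane traffic. They are examples without a count of such genes, and exons of other such genes were skipped. Among the skipped ones was that of 15 nt in Itsn1, with 0 of 518 reads. Picalm, the clathrin assembly protein, included its exon of 24 nt at 56.6% in R1 and 59.7% in R2 from 3375 reads in all. The clathrin heavy chain gene Cltc had an exon of 21 nt at 11.5% and 9.82%, on either side of the limit of 10%. Dnm2, the dynamin that cuts vesicles from the membrane, included 12 nt at 24.1% and 20.6%. Sh3glb2, an endophilin, stood at 10.6% and 13.8% for 15 nt. In Arrb1, the beta-arrestin that takes receptors to clathrin, an exon of 24 nt stood at 32.1% and 30.4%. Snx14, a sorting nexin, included 27 nt at 24.9% and 15.8%, a wider gap between the libraries than in the others. By transcript TPM, described below, the exons of Cltc, Dnm2 and Arrb1 stood over 25 points higher than by junction reads.

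Among signalling genes, the intermediate exons lay in kinases, receptors and channels. By junction reads the microtubule affinity kinases Mark3 and Mark2 differed in level. Their exons of 27 nt stood at 86.2% (95% interval 83.9% to 88.2%) and 25.3% (22.6% to 28.2%). By transcript TPM, described below, the exon of Mark2 stood at 70.4% and 69.2%, and for Mark3 no TPM value could be formed. Mink1, a kinase upstream of JNK signalling, included 24 nt at 31.3% and 31.5%. Axl, a receptor tyrosine kinase for Gas6, included 27 nt at 68.2% and 65.7% by junction reads, but at 92.5% by TPM in both replicates. Cacnb3, the calcium channel beta subunit of smooth muscle, included 20 nt, a length that shifts the reading frame, at 69.1% over both. Pecam1, the adhesion molecule of endothelial cells, included 23 nt at 50.2% and 53.8%. Its flanks were uneven, with 458 upstream and 690 downstream reads, and the lower flank alone gave 46.3%.

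In annexin 6 (Anxa6), a calcium-dependent membrane-binding protein, the exon of 18 nt stood at 64.9% and 68.0% with 1765 upstream and 2595 downstream reads, and the lower and higher flank alone gave 61.6% and 70.2%. Uckl1, a uridine and cytidine kinase, included 17 nt at 71.2% and 76.7%. Lgals8, a galectin, included 27 nt at 88.9% and 89.9%, just under the limit of 90%. Max, the dimer partner of Myc, included 27 nt at 21.3% and 23.7%, and Mecom, a zinc finger transcription factor, 27 nt at 25.3% and 24.2%. In bulk tissue, an intermediate value in all cells and a mixture of cells that include and cells that skip the exon cannot be told apart.

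**Figure D3:**
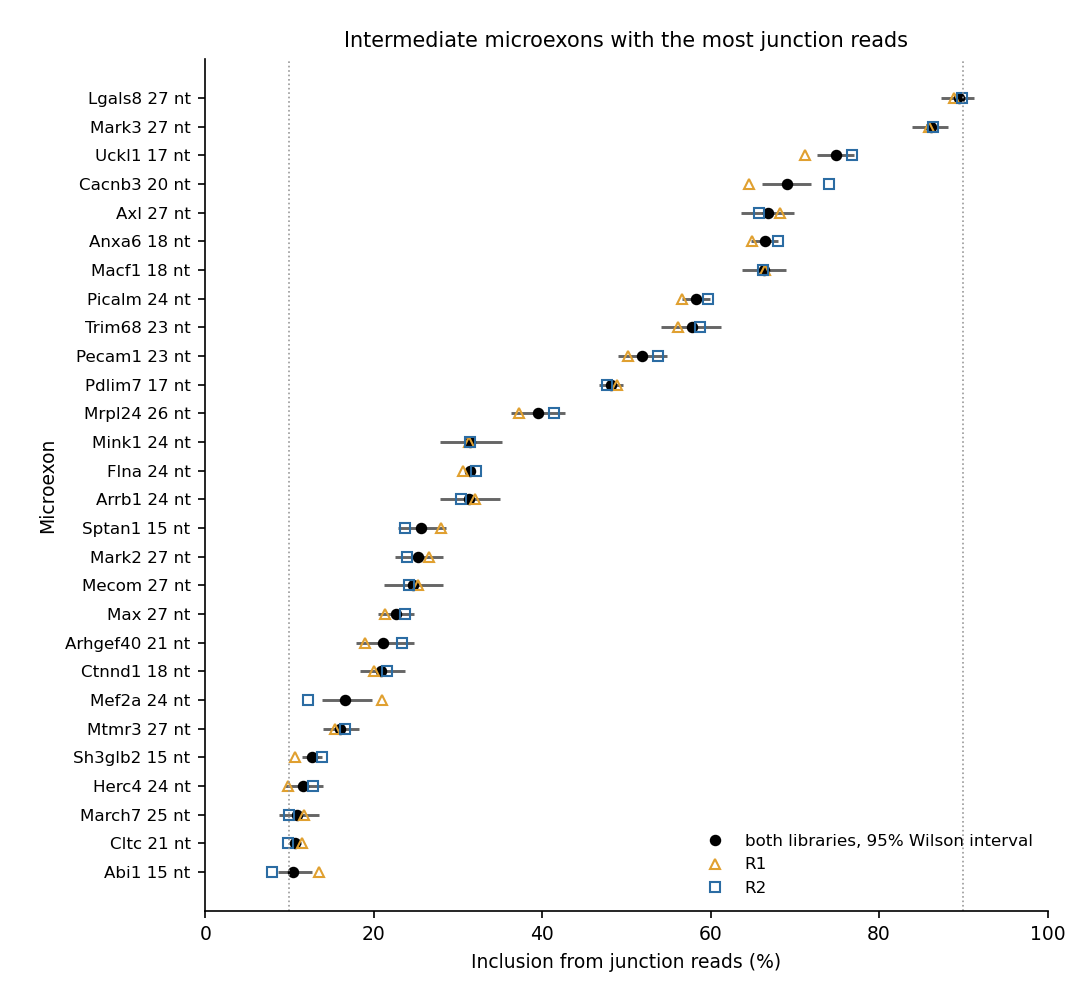
Inclusion from junction reads (%, horizontal axis) of the intermediate microexons with the most reads and flanks within 3 times (vertical axis, gene and length). Black points with bars are both libraries together with the 95% Wilson interval, triangles R1 and squares R2, and dotted lines mark 10% and 90%. The values run from 10.5% in Abi1 to 89.5% in Lgals8, and R1 and R2 lie widest apart in Cacnb3 and Mef2a.

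The 3 measured Mef2 genes, transcription factors of muscle and nerve, each have a short exon near the transcriptional activation domain. The exon of 21 nt in Mef2d stood at 37.6% in R1 and 37.5% in R2, and that of 24 nt in Mef2a at 21% and 12.2%. In Mef2c the exon of 24 nt had no read at either flank against 63 and 86 skipping reads, which allows up to 2.01% with 3 reads as the limit. By junction reads the 3 genes thus differed beyond the counting intervals, with Mef2d (32.7% to 42.7%) above Mef2a (13.9% to 19.8%). These intervals cover counting error only, and those of R1 and R2 did not overlap in Mef2a. By transcript TPM, given below, Mef2a stood above Mef2d, so the order of these genes depends on the readout.

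The exons of the next group, each known for inclusion in neurons, had inclusion under 10% by junction reads. The exon of 18 nt in Src, which forms neuronal Src by an insertion in the SH3 domain, had 8 upstream, 9 downstream and 536 skipping reads in R1 and 30, 28 and 711 in R2, an inclusion of 1.6% and 3.9%. Kdm1a, the histone demethylase LSD1, had 0 reads for its neuronal exon of 12 nt against 475 skipping reads (up to 0.632% by counting alone). Reads at both flanks were uncommon at 12 nt, and the part of read alignment in this 0 was not tested. Agrin organises the neuromuscular synapse, and its neural forms carry inserts at the sites y and z. The exon of 12 nt stood at 0.4% and the exon of 24 nt at 0 of 2052 reads, which allows up to 0.146%. L1cam, an adhesion molecule of axons, had its exon of 12 nt at 0.4%, with 1 upstream and 3 downstream reads against 477 skipping reads. The exon of 21 nt in Eif4g1, a scaffold of translation initiation, was not seen in 1136 reads and that of Eif4g3 not in 661. By transcript TPM the exon of Eif4g3 stood at 64.5% and 64.9%, and that of Eif4g1 at 4.1% and 3.2%. The exons of 12 nt in Kdm1a and L1cam stood at 0% and 0% and at 13.1% and 4.8% of TPM. In the gene tables the neuron markers Snap25, Syt1 and Elavl4 stood at 1.63 and 1.22, 0.62 and 0.44, and 0.1 and 0.11 TPM. Rbfox3, also among the neuron markers, went the other way, at 42.8 and 17.6 TPM.

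The synapse list held 40 genes, of which 33 had a microexon and 26 of 75 microexons were measured with flanks within 3 times. Of these 26, 20 were skipped (76.9%, against 32.4% of all 820), 5 intermediate and 1 included. From 12 nt on 17 of 23 were skipped (73.9%, against 25.9% of 745). All 26 were multiples of 3, against 70.1% of the 820. The included exon was that of 27 nt in Cacna1c, the L-type calcium channel of smooth muscle and heart, with 116 and 62 upstream reads and no skipping read. The intermediate ones were in Cacna1d (27 nt, 41.7%), Nfasc (15 nt, 87.0%, and 93.0% in R2 alone), Robo1 (27 nt, 55.0%), Ptprs (12 nt, 86.7%) and Ptprd (27 nt, 75.2%). Ptprd, Ptprs and Ptprf are receptor phosphatases whose short exons tune binding to partners across the synapse. The related exon of 27 nt in Ptprf stood at 8.5%. The other 5 measured exons of Ptprd, of 9 to 18 nt, were skipped, from 21 to 81 skipping reads each, and overlapping exons and neighbouring exons there share skipping reads. The lists hold genes chosen because alternative microexons are known in them, with earlier results of these data in view, and their counts are no independent evidence of a direction.

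The list of kinases, adaptors and small GTPase regulators had 29 measured exons, 22 skipped (75.9%, against 32.4% of all 820), 3 intermediate and 4 included. Of these, 8 of the skipped ones were under 12 nt, and from 12 nt on 14 of 21 were skipped (66.7%, against 25.9% of 745). Pairs of skipped exons in Itsn1, Arhgap21, Asap2 and Apbb2 had the same skipping reads, which were counted for each exon. The exons of 9 and 21 nt in Cadps, of the muscle and cytoskeleton list below, did so too. Skipped ones include the exons of 18 nt (0 of 451 reads) and 21 nt (2.9%) in Ptk2, focal adhesion kinase, the exon of 27 nt in Git1 (0.9%) and that of 15 nt in Itsn1, intersectin of endocytosis, with 0 of 518 reads. Among the included ones, the exon of 25 nt in Ptk2b, the calcium-activated relative of Ptk2, had 922 and 924 flank reads and no skipping read. Abi1, an adaptor of the actin regulator WAVE, was intermediate for 15 nt at 13.5% and 7.9%, while the exon of 18 nt in Abi2 stood at 0.5%. By transcript TPM the exon of Abi1 stood at 49.9% and 47.9%, and for Abi2 no TPM value could be formed.

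In the muscle and cytoskeleton list 34 exons were measured, of which 16 were skipped (47.1%, against 32.4% of all 820), 10 intermediate and 8 included. Without the 4 under 12 nt 12 of 30 were skipped (40%, against 25.9% of 745). Without exons that share an end 4 of 27 were included (14.8%, against 49.6% of 678). The exon of 9 nt in Tnnt2, cardiac troponin T, had no flank read against 3899 and 2425 skipping reads, and for this length a 0 is only what the junction file lists. By transcript TPM the exon stood at 7.7% and 11.5%. The troponin T genes of slow and fast skeletal muscle, Tnnt1 and Tnnt3, also held measured exons. In Tnnt1 the exons of 19 and 22 nt are 2 forms of 1 exon, with 27 and 26 upstream reads of their own but the same 59 downstream and 4 skipping reads. Each came out above 90% by the measure (91.5% and 91.4%), but the shared reads were counted in full for both, so neither value is a share of transcripts. The exon of 18 nt in Tnnt3, which shares an end with another exon, had 43 upstream, 16 downstream and 1 skipping reads. Skeletal muscle markers were present in the gene tables, with Ckm at 263 and 259 TPM and Acta1 at 1371 and 1042 TPM, while Myh4 stood at 0 and 0.01 TPM. Their part in these exons was not tested. Ldb3, the Z-disc protein also called ZASP, was intermediate for 15 nt (55.6%) and 23 nt (42.4%), from 36 and 29.5 reads. Dst, dystonin, included 18 nt at 97.2% and 96.4%.

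Of 14 measured exons in the membrane traffic list 8 were skipped (57.1%, against 32.4% of all 820), 5 intermediate and 1 included. However, 5 of the 8 were under 12 nt with no flank read. Of the 9 from 12 nt on, 3 were skipped (33.3%, against 25.9% of all 745 microexons of that length), 5 intermediate and 1 included. Apart from Picalm, Cltc and Snx14, these intermediate exons were in Mon2 (18 nt, 35.3%) and Trappc9 (27 nt, 36.4%), 2 proteins of Golgi transport. In the list of transcription and chromatin, 5 of 10 were skipped (50%, against 32.4% of all 820), 4 intermediate and 1 included. In that of RNA binding and translation 3 of 4 were skipped (75%) and 1, in Cpeb2, was intermediate at 15.7%. In all, the lists held 117 measured exons with 74 skipped (63.2%), 28 intermediate and 15 included, and outside the lists 27.3% of 703 were skipped. From 12 nt on the skipped shares were 55.2% of 96 in the lists and 21.6% of 649 outside them.

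The factors that act on microexons were read from the gene tables in TPM. Srrm4 stood at 0.26 in replicate 1 and 0.33 in replicate 2, and its relative Srrm3 at 0.05 and 0.1. Ptbp1 stood at 116 and 104.8, and Ptbp2, its counterpart in neurons, at 36.2 and 39.5. The Rbfox family was represented by Rbfox2 at 45.4 and 44.8, with Rbfox1 at 0.12 and 0.14. Rbfox3, the neuronal antigen NeuN, stood at 42.8 and 17.6, a level not shared by the other neuron markers. Mbnl1 stood at 80.7 and 64.9, Rbpms, a splicing regulator of smooth muscle, at 267 and 228, and the epithelial regulators Esrp1 and Esrp2 at 23.4 and 27.6 and at 49.0 and 43.2. The urothelial marker Upk1a (1612 and 2342 TPM) and the smooth muscle marker Acta2 (8841 and 8508 TPM) were present, as the tissue label requires. With 1 group, no relation between a factor and an exon can be measured.

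Inclusion class and reading frame went together. Lengths that are multiples of 3 made up 54.9% of the 430 included, 82.3% of the 124 intermediate and 89.1% of the 266 skipped microexons. For exons of 28 to 50 nt the same shares were 37.9%, 62.3% and 59.2%, and for all longer exons 39.1%, 53.2% and 46.9%. Read the other way, 79.2% of the 245 microexons that shift the frame were included against 41.0% of the 575 that keep it. Restricting the count to the 680 exons that lie inside the coding sequence in M21 gave 54.7%, 82.9% and 90.7%. Intermediate exons that shift the frame were 22 in number, Cacnb3 (20 nt), Pdlim7 (17 nt), Pecam1 (23 nt), Uckl1 (17 nt) and Trim68 (23 nt) among them.

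**Figure D4:**
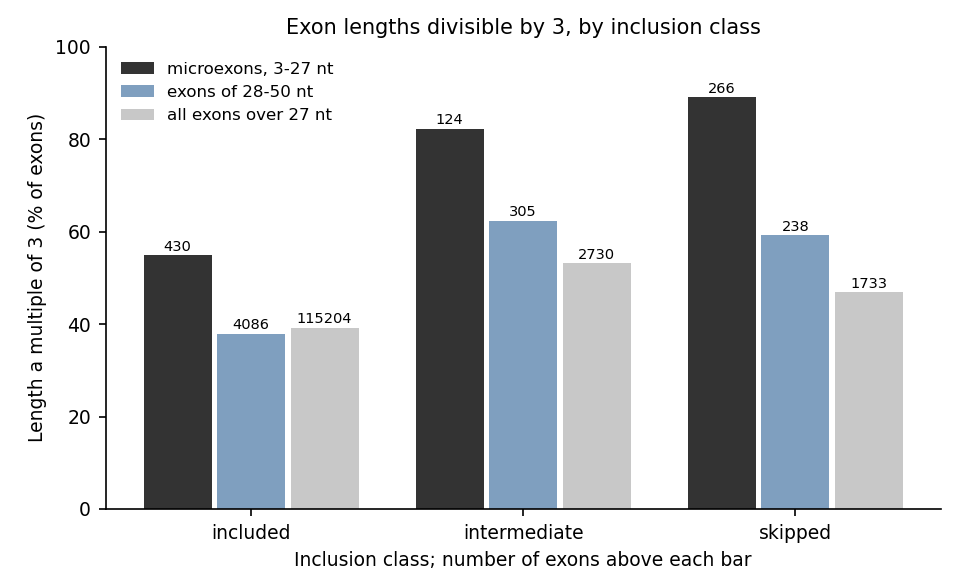
Share of exons whose length is a multiple of 3 (%, vertical axis) in each inclusion class (horizontal axis), for microexons (black), exons of 28 to 50 nt (blue) and all exons over 27 nt (grey), with flanks within 3 times; the number of exons stands above each bar. Microexons run from 54.9% of included to 89.1% of skipped exons, and exons of 28 to 50 nt from 37.9% to 59.2%.

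The included microexons with the most reads lay in genes of different kinds. Krt15, a keratin of basal epithelial cells, had 14197 upstream and 16442 downstream reads for its exon of 26 nt and no skipping read. Bsg, basigin, had 11102 and 12668 flank reads for 25 nt and 1 skipping read. Uqcrh, a subunit of respiratory complex III, had 10559 and 9763 for 21 nt and none skipping. Selenow, a selenoprotein, had 11864 and 8117 for 25 nt and none skipping, and this exon holds an in-frame TGA, the codon that is read as selenocysteine in this protein. Gsdmc2, a gasdermin, had 12854 and 8202 flank reads for 27 nt and 1 skipping read, and Gas6, the ligand of Axl, had 5431 and 5500 for 25 nt and none skipping. Ppp1r12a, the myosin phosphatase subunit of smooth muscle, held its exon of 17 nt in all of 4433 reads. Collagens had 38 of the 820 microexons, in 16 genes, and 33 were of 27 nt, the length of 3 triplet repeats of the collagen helix. Of the 38, 36 were included, against 52.4% of the 820 and 66.5% of all 173 exons of 27 nt. The more deeply read of these, in Col6a1, had 7375 and 8378 flank reads and no skipping read. Both collagen exons below 90%, named after their values were seen, were in Col25a1, at 50% and 86.8%.

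Some genes held several measured microexons that differed in inclusion by junction reads. In Macf1 the exon of 18 nt stood at 66.4%, while 2 exons of 12 and 15 nt that share an end and their skipping reads had 0 of 819. By transcript TPM, the second readout described below, the exon of 15 nt stood at 46.3% and 48.2% and that of 12 nt at 1.8% and 0.7%. Outside the rule for named exons, Ptprc, the leukocyte antigen CD45, held 10 measured exons, 2 of 24 nt with no skipping read and 8 of 6 to 15 nt with no flank read. The 8 are also the shorter ones, and under 12 nt a 0 is only what the junction file lists. In Trdn, triadin of the sarcoplasmic reticulum, 5 exons of 21 and 27 nt had no skipping read and 1 of 18 nt stood at 36.8%. Slc8a1, the sodium and calcium exchanger of muscle, had exons of 18, 21 and 15 nt at 100%, 23.6% and 8.5%, so the 3 microexons of this gene fell into 3 different classes.

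GC content differed little between the classes, and the first base differed most. Of the 820 exons, 722 matched an M21 transcript. Their median GC content was 49.1% in included, 48.1% in intermediate and 46.0% in skipped microexons, against 48.0% in coding exons of 28 to 50 nt and 50.8% in all longer coding exons of M21. The last base was G in 78.0%, 86.8% and 82.3%, against 80.0% in longer exons. The first base was G in 48.8% of 422 included, 39.5% of 114 intermediate and 29.0% of 186 skipped exons, against 48.2% in longer exons. Overlapping exons share bases, the classes also differ in length, and no test was made.

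A second readout came from the transcript tables on mm10, as the TPM of transcripts that hold the exon in percent of that plus the TPM of transcripts that skip it. It could be formed for 233 of the 820 exons, with at least 1 TPM over both kinds in each library. Its values in replicates 1 and 2 were close, with a median SD of 1.04 points (n = 2), but they came from whole transcripts that also differ elsewhere. Across exons the 2 readouts correlated at 0.67 (Pearson) and 0.66 (Spearman), with a median difference of 5.09 points, and differed by over 25 points in 61 exons. Among the 65 intermediate exons the correlation was 0.31 (Pearson) and 0.28 (Spearman), with a median difference of 19.4 points, and 24 differed by over 25 points. Of the 143 exons skipped by junction reads, 35 differed by over 25 points. By TPM 25 of the 143 stood over 50% and 91 under 10%. Of the 25 included exons 2 differed by over 25 points. Dnm2 (54.4% and 58.6% of TPM against 22.5% of junction reads), Mark2 (70.4% and 69.2% against 25.3%), Cltc (46.0% and 48.9% against 10.6%) and Arrb1 (62.6% and 63.7% against 31.3%) were all higher by TPM. Flna (28.2% and 29.0%), Anxa6 (66.7% and 68.1%), Pecam1 (45.5% and 47.5%) and Src (2.7% and 3.8%) lay within 7 points of the junction value. In Agrn the exon of 24 nt stood at 64.8% and 62.3% of TPM with 0 of 2052 junction reads, and in Eif4g3 that of 21 nt at 64.5% and 64.9% with 0 of 661. Mef2a had 79.5% and 80.2% of TPM against 16.7% of junction reads, while Mef2d had 6.9% and 5.0% against 37.6%. In Agrn and Eif4g3 the junction value rests wholly on reads of the skipping junction. Which readout is nearer to the true inclusion was not tested.

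**Figure D5:**
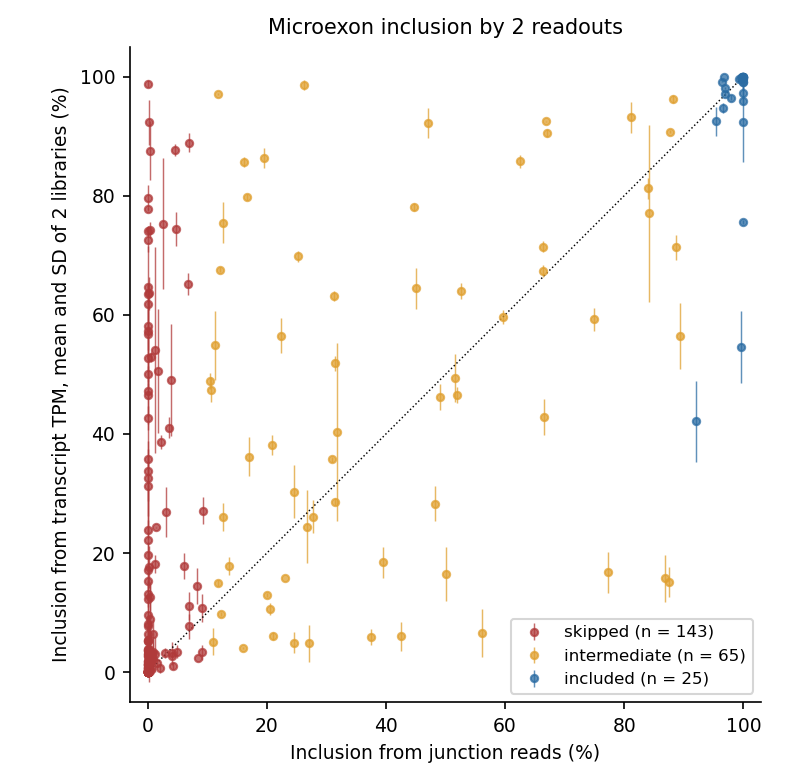
Inclusion from transcript TPM (%, vertical axis, mean with SD of 2 libraries as bars) against inclusion from junction reads (%, horizontal axis) for 233 microexons, coloured by junction class; the dotted line marks equal values. Points near the line include Flna, Anxa6 and Src, and the column of red points at 0 on the horizontal axis holds exons such as Agrn 24 nt whose TPM value is high with no junction read.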

How the data were processed

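Stranded paired-end libraries of polyadenylated RNA over 200 nt, depleted of ribosomal RNA, were made from bladder, per the labels. For the whole series the authors deposited, per the file headers, exon coordinates of Ensembl 65 and splice junctions on mm9 with read counts. In each of the 1061777 junctions the total equals the sum of R1 and R2. The aligner is not given in the sources used here. Exon positions on mm9 and transcript positions and identifiers are other values taken as deposited.

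For each library the authors deposited gene and transcript tables on mm10 (GENCODE M4, per the deposited descriptions) with expected counts, which were used only for depth (99367453 and 105057347 on genes), and TPM, scaled over all rows. Transcript structures and sequences came from GENCODE M21 by transcript identifier, for transcripts of equal length in both. Of 1305 measured microexons, 945 matched an exon with the same length and flanking intron lengths.

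Inclusion used every annotated flank of an exon once. It was computed with Python 3.11.15, pandas 2.3.3 and numpy 2.4.6, and figures with matplotlib 3.10.9. On simulated reads for 2029 exons, 96.2% of the intervals held the true inclusion. This figure checks the calculation on simulated reads only and is not the coverage of the reported intervals. The measured exons have uneven flanks (over 3 times apart in 485 of 1305), shared junctions and PCR copies. Coverage under these conditions was not tested. The design foresaw no reads per library in the junction table, but R1 and R2 are there and were used as a description. The floor for 0 inclusion is 3 reads. No test was run, since there is 1 group and exons are not replicates. Exons named are the 30 intermediate, 15 skipped and 15 included with the most reads, the 6 shortest and those of 7 gene lists; others are marked where they occur. Not every exon under the rule is reported by name. Members and lists were chosen with earlier results of these data known. Alternatives were other read minimums, other ways to combine flanks, and leaving out overlapping exons, uneven flanks or 1 library. No genome sequence was used here, so intron sequence around the exons was not read. Exons on chromosome 18 are given without sequence.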

Additional observations from a re-analysis of the deposited data

Results flagged for a closer look

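Junctions that are in the deposited file but join no annotated pair of exons were outside the inclusion measure. In 86 of the 1305 measured microexons at least 1 splice site carried 20 or more reads on such junctions, and 59 of the 86 had flanks within 3 times. In Gsdmc2 (27 nt) the downstream splice site had 326 reads in R1 and 629 in R2 on unannotated junctions, beside 8202 on the annotated one. Gsdmc3 (27 nt), of the same gene family, had 246 and 506. Nptn (22 nt), neuroplastin, had 143 and 191 at the upstream site, Fxyd3 (24 nt) 74 and 157, and Pecam1 (23 nt) 70 and 51. In Trim12a (27 nt) the upstream site had 164 and 147 reads on unannotated junctions beside 405 on annotated ones. These reads were not added to inclusion, and the exons outside the rule for named ones were chosen after their values were seen.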

How the results depend on the processing

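Over the alternatives run, the intermediate count moved by less than 1.5 times from 153. Leaving out exons that overlap another annotated exon gave 724 measured microexons, 372 included, 525 multiples of 3 and a median inclusion of 95.4%. Leaving out uneven flanks gave 820 measured, 430 included and a median of 96.7%. The lower flank in place of the mean gave 441 included and a median of 89.1%. With at least 5 reads at both flanks, an alternative chosen after seeing the data, 583 were measured, 430 included, 29 skipped and 364 multiples of 3. Leaving out exons beside an annotated intron of up to 30 nt, chosen likewise, gave a median of 99.9%. By their construction these alternatives test fewer exons or count fewer reads. The other read minimums, the single best flank pair and the higher flank moved no count by over 1.5 times, and neither did the reads of 1 library alone. For 159 named exons 768 values were recomputed, 750 of which lay within the interval or 1 SD of the reported one, and 13 fell into another inclusion class. With R2 alone Abi1 (7.87%), Cltc (9.82%) and Kif21a (9.86%) were skipped, Myh14 (91.7%) and Nfasc 15 nt (93.0%) included, and both Tnnt1 exons (88.0%) intermediate. With R1 alone Herc4 (9.77%) was skipped. The lower flank gave March7 7.91% and the Tnnt1 exons 87.1% and 86.7%, the higher flank gave Phf21a 11.1%, and the single best flank pair gave Nfasc 15 nt 100%. Median inclusion from TPM moved by less than 1 SD under all 5 settings. No paired analysis was possible because there is 1 group. Depth limits a value of 0 to under 3 reads. Exons of 3 to 11 nt had reads at both flanks in 2 of 165 cases, and the part of read alignment in this was not tested.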
